A study of Mus musculus with 178 samples.

Results

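Whole blood of mice whose tumors responded to an antibody against PD-1 was compared between Day 9 and Day 4, mouse by mouse. The comparison used 30 of the 178 bulk RNA-seq libraries of the study. These were the Day 4 and Day 9 libraries labelled as responder, which formed 15 pairs because each ear tag had 1 library on each day. The 15 pairs were separate animals, so the spread in the tests is a spread between mice.

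All animals were young adult C57BL/6J mice that carried tumors grown from 4MOSC1 cells, a tobacco-carcinogen-related mouse oral squamous carcinoma line, placed in the mouth. Every group in the study received the antibody against PD-1, and no untreated or tumor-free animals were sampled. Day 4 was the first bleed, before treatment, and Day 9 was the first bleed after treatment had begun, with later bleeds on Days 17 and 24. The start of treatment is given both as Day 4, after that bleed, and as Day 7, so the time on treatment at Day 9 is uncertain. Treatment, time, tumor growth and repeated bleeding therefore changed together and cannot be told apart. Blood was taken from behind the eye straight into TRIzol, with no sorting or red cell removal, and response was scored from tumor size by RECIST rules. The ear tags formed a 4-digit series (11 of these responders) and a 3-digit series (4 responders). The labels do not say what the series were, and they were treated as possible batches. Mice are numbered 1 to 15 by their Day 4 library, with 4-digit tags in mice 1 to 11 and 3-digit tags in mice 12 to 15. Mouse 4 had no Day 17 library, so the Day 17 medians given below leave it out and include 10 mice of the 4-digit series.

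PD-1 is an inhibitory receptor of activated T cells, and an antibody that blocks it releases these cells from restraint by PD-L1 on tumor and myeloid cells. Blood carries the cells that move between bone marrow, lymph nodes and tumor. Classical monocytes and neutrophils leave the marrow through it, whereas naive T and B cells pass through it between lymphoid organs. In bulk blood, fewer cells of a type and less RNA per cell cannot be told apart, and a smaller share of one cell type can also stand for a larger share of the others.

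The libraries held 33774971 to 63000426 counts (median 49519451), of which 75.4% to 87.8% came from haemoglobin genes. Haemoglobin took a median of 83.8% on Day 4 and 83.1% on Day 9. Of the 30, 4 libraries stood apart from the other 26, all of Day 4, namely those of mice 4, 6, 12 and 13. On the first principal component, which held 29.5% of the variance, they lay at 44.4 to 73.1, against -29.2 to 30 for the others. They had low scaling factors (0.348 to 0.577, against 0.6 to 2.22). Their haemoglobin share was high, at 85.8% to 87.8%, but was not particular to them. The others ran from 75.4% to 87.2%, the latter in the Day 9 libraries of mice 1 and 14. Calls of the genes described that were gained or lost without these 4 mice, and list counts that moved by more than 1.5 times, are given both ways. The inactive X marker Xist had 1022 to 15718 counts in every library, and the Y-linked Ddx3y had 0 in all 30. Counts summed over Y-linked genes were 0 in every library as well. This is the pattern of female animals, while the paper reports that the study used both sexes.

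Day 9 blood was richer in transcripts of classical monocytes and neutrophils and poorer in transcripts of T cells, B cells and ribosomal proteins. Counts were tested with edgeR's quasi-likelihood test with the mouse as a block, and a gene was called when its Benjamini-Hochberg adjusted p was at most 0.05. Of 11736 genes tested, 1352 were higher on Day 9 (11.5%) and 1316 were lower (11.2%). The sizes were unequal, since 538 genes rose by 1.5-fold or more (4.58%) and 135 fell by as much (1.15%). At this size 698 were higher and 43 lower without the 4 mice whose Day 4 libraries stood apart, and 43 and 34 on TMM-rescaled TPM, described below. The median log2 fold change over all genes was 0.01. A smaller number moved alike in every animal, with 128 genes higher in all 15 mice and 184 lower in all 15. Without these 4 mice, 1348 genes were higher and 782 lower, and 55.7% of the 2668 calls were shared with the full set. On the deposited TPM, which sum to 1 total with haemoglobin included, limma called only 26 genes of 6782, whereas it called 1309 of 6341 once each library's TPM was divided by its count-based scaling factor.

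**Figure D1:**
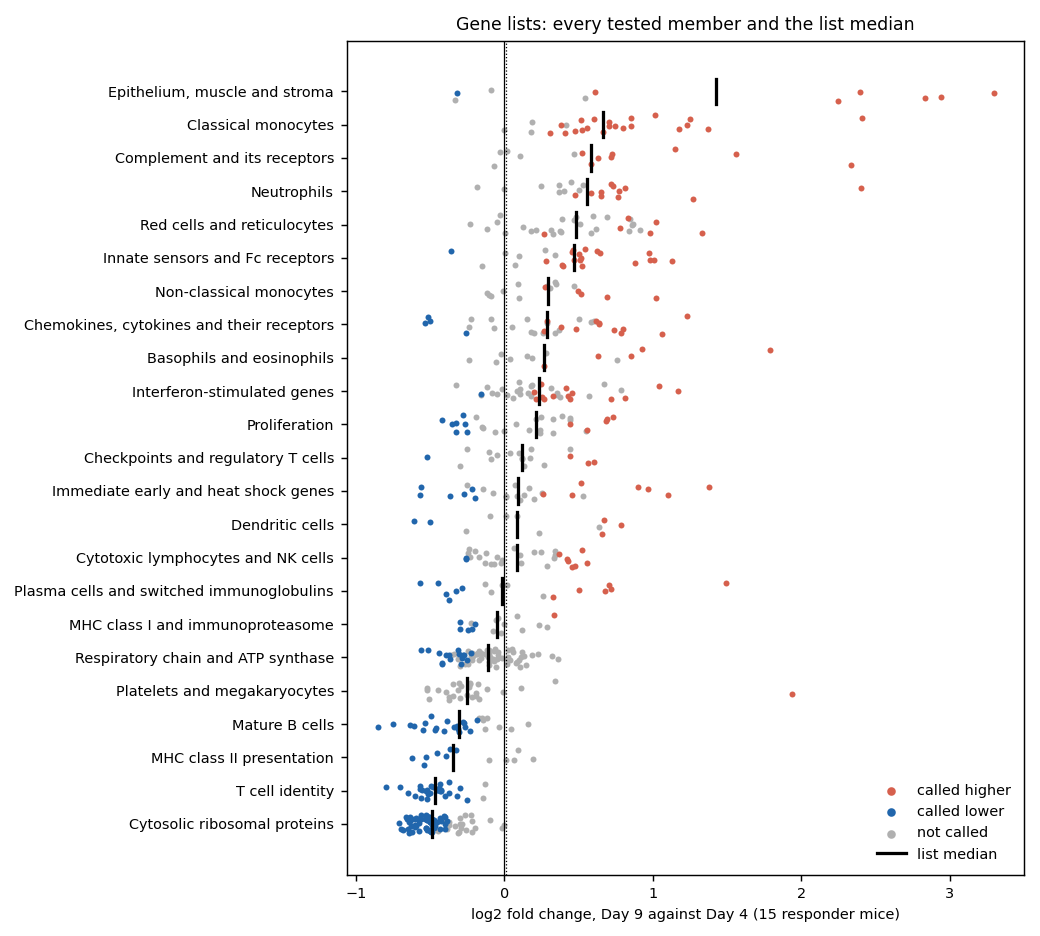
Log2 fold change from Day 4 to Day 9 (x axis) of the tested members of each gene list (one line per list), with one point per gene and a mark at the list's median. The monocyte list has its median at 0.66 and the T cell list at -0.47, while all genes together have theirs at 0.01.

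Classical monocytes are inflammatory precursors that leave the marrow through the chemokine receptor CCR2 and become macrophages in tissue. Of 25 genes on their list, 21 rose, none fell, and the median log2 fold change was 0.66. Vcan, which encodes the matrix proteoglycan versican and is strongly transcribed in these cells (chr13:89655312-89742509, minus strand, GRCm38), changed most. Its level ran from 0.338 to 3.17 CPM (counts scaled to a common library size after TMM, a correction for unequal composition) on Day 4 (median 1.42) and from 2.96 to 20 on Day 9 (median 7.06). The ranges met only at their edges, all 15 mice rose, and the log2 fold change was 2.41 (SE 0.25, adjusted p 1.09e-05, edgeR). By Day 17 the median was 2.59 and by Day 24 it was 0.761, below that of Day 4.

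Ccr2 itself (chr9:124101950-124113557, plus strand) lay between 8.37 and 35.5 CPM on Day 4 (median 18) and between 26.1 and 67.3 on Day 9 (median 40.7). It rose in all 15 mice by 1.23 on the log2 scale (SE 0.17, adjusted p 0.000111), and its medians were 21.4 and 17.1 on Days 17 and 24. The fibronectin gene Fn1 (1.01), the membrane protein gene Ms4a6d (1.25) and the chemokine gene Ccl9 (0.80) also rose, in 14, 15 and 15 mice. Ly6c2, whose product is the surface marker used to sort these cells, did not pass the test, with a log2 fold change of 0.18 (SE 0.16, adjusted p 0.43) and 8 of 15 mice higher. The rise of the list was therefore not a rise of every marker. Non-classical monocytes, which patrol vessel walls, had 5 of 16 list genes higher and none lower (median 0.30), and 3 higher without mouse 2, 10, 11 or 15. Their anchors Nr4a1 (0.35), Ace (-0.10) and Treml4 (0.28) were not called, while Adgre4 (0.51), Cd300ld (0.50) and the myeloid transcription factor gene Cebpb (1.02) rose. Nr4a1 passed without mouse 1 (adjusted p 0.005) or mouse 14 (adjusted p 0.0451).

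Csf2rb2, a receptor subunit of the interleukin 3 family, was among the genes of smallest p (chr15:78282507-78305721, minus strand). It ranged from 1.63 to 5.18 CPM on Day 4 (median 3.35) and from 3.23 to 8.16 on Day 9 (median 5.81). The log2 fold change was 0.82 (SE 0.08, adjusted p 6.9e-06), and every mouse rose. On Day 24 the median was back at 3.01.

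**Figure D2:**
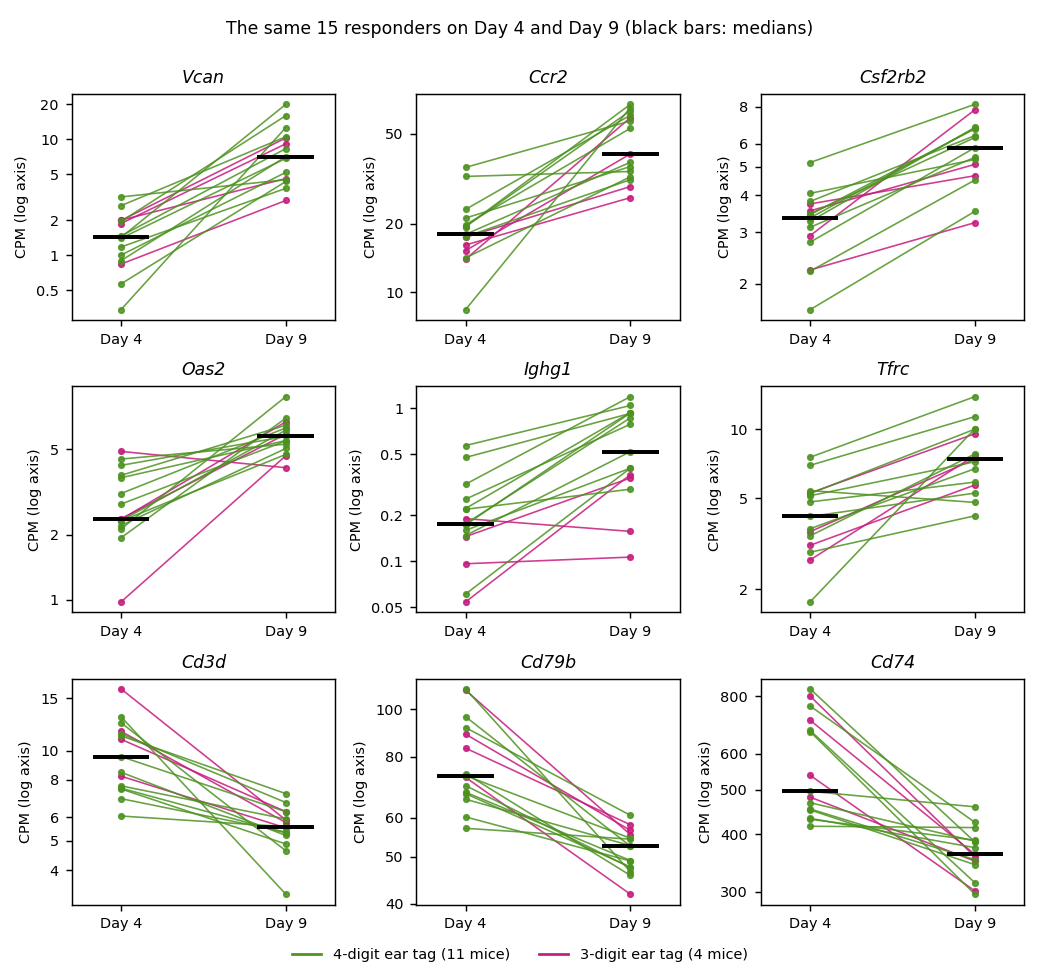
Levels of 9 genes in CPM (log axis) on Days 4 and 9, with one line per mouse coloured by ear tag series and black marks at the medians of the 15 mice. Vcan, Ccr2 and Csf2rb2 rise in all 15 mice and Cd3d, Cd79b and Cd74 fall in all 15.

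Neutrophils are the short-lived granulocytes that store antimicrobial proteins in granules. Of 28 listed genes 20 were abundant enough to test, and 11 of these rose with none lower (median 0.56). Itgam, the integrin chain CD11b shared with monocytes, went from 16.5 to 37.5 CPM (median 22.5) on Day 4 to 29.8 to 46.3 (median 40.2) on Day 9, a log2 change of 0.72 (SE 0.10, adjusted p 0.000117). Anxa1, the anti-inflammatory annexin gene, rose by 0.77, and both were higher in 14 of 15 mice. The alarmin gene S100a8 (0.45, adjusted p 0.102) and the chemokine receptor gene Cxcr2 (0.37, adjusted p 0.0786) were higher in 10 mice each and were not called. Without mouse 1 both passed, at adjusted p 0.0459 and 0.0292, and Cxcr2 also without mouse 12 (0.0439) or mouse 15 (0.0405). Ltf, which encodes the iron-binding granule protein lactoferrin, rose by 2.40 (SE 0.30, adjusted p 5.46e-05), but by 1.65 in the 4-digit mice and 3.80 in the 3-digit mice. That difference passed its own test (2.14, SE 0.34, adjusted p 0.0139), and Ltf is also a product of glandular epithelium, whose transcripts differed between the series as described further on. Whether epithelial RNA had a part in it was not tested.

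Basophils, rare granulocytes of allergy and type 2 immunity, are marked by Mcpt8. This protease gene stood at 0.0271 to 0.432 CPM on Day 4 (median 0.118) and 0.0938 to 1.14 on Day 9 (median 0.524). It rose by 1.79 (SE 0.35, adjusted p 0.00164) in 12 of 15 mice, and the days overlapped. The basophil and eosinophil list had 5 of 13 genes higher, among them the histamine-forming enzyme gene Hdc (0.63) and the IgE receptor gene Ms4a2 (0.93), with a median of 0.27. The list's median was 0.31 in the 4-digit mice and -0.05 in the 3-digit mice, in which none was called. Ms4a2 was not called without the 4 mice apart (0.86, adjusted p 0.0703). The eosinophil lectin gene Siglecf was at 0.15 and was not called. Dendritic cells, which present antigen to T cells, had 3 of 11 genes higher and 2 lower (median 0.09), and the median turned to -0.01 without mouse 9. Summed over this list, the level was higher on Day 9 in only 1 of 15 mice, with medians of 65.6 CPM on Day 4 and 57.2 on Day 9. Runx2, a transcription factor gene of plasmacytoid cells, was one of 2 genes higher in every Day 9 library than in any Day 4 library, at 1.01 to 2.23 and then 2.4 to 3.77 CPM (0.79, SE 0.09, adjusted p 3.19e-05). The lymphoid-linked Ly6d (-0.61) and Ccr9 (-0.50) fell, and the anchors Siglech (0.23) and Cd209a (0.09) were not called.

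Pattern recognition genes moved with the monocyte genes. Of 25 innate sensors and Fc receptors 18 rose and 1 fell, with a median of 0.47, and 17 rose with none lower without the 4 mice apart. Without mouse 9, 16 rose and 2 fell. Mefv, the gene of the inflammasome protein pyrin, had a range of 1.03 to 4.04 CPM on Day 4 (median 1.68) and 2.4 to 5.45 on Day 9 (median 4.04). It rose by 1.13 (SE 0.14, adjusted p 5.46e-05), and 14 of 15 mice rose. Other members were higher too. The endosomal RNA sensor gene Tlr8 (0.98), the C-type lectin gene Clec4e (1.00), the lipopolysaccharide receptor gene Tlr4 (0.47) and the high-affinity IgG receptor gene Fcgr1 (0.98) rose as well. Fcgr4 (0.39, adjusted p 0.049) lay at the threshold and lost the call when any of 11 mice was left out singly, with a highest adjusted p of 0.0944.

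Complement genes, whose products tag and lyse targets in plasma, followed the same direction, with 8 of 13 tested higher and none lower (median 0.58). C4b rose by 2.33 (SE 0.30) from a median of 0.0814 to 0.47 CPM, and the central component gene C3 by 0.63 (SE 0.17, adjusted p 0.0128). Properdin (Cfp) was at 0.11 and was not called. Averaged over the list, every one of the 15 mice rose, from 0.24 in mouse 6 to 1.17 in mouse 9.

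Among chemokines, cytokines and their receptors, 12 of 31 genes rose and 4 fell (median 0.29), and without the 4 mice apart 6 rose and 4 fell. Il1b, the inflammasome-processed cytokine gene, ran from 7.55 to 29.8 CPM on Day 4 (median 11) and from 12.4 to 41.3 on Day 9 (median 20.4). Its rise of 0.74 (SE 0.20, adjusted p 0.0114) was seen in 12 of 15 mice and was not called without those 4 mice (0.64, adjusted p 0.0523). Ccr7, the receptor that leads naive lymphocytes into lymph nodes, fell in all 15 mice, from a median of 29.6 to 21.9 CPM (-0.52, SE 0.06, adjusted p 5.87e-05). The effector T cell receptor gene Cxcr3 was at -0.09 and was not called.

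Interferons switch on antiviral genes through the STAT and IRF transcription factors. Of 38 interferon-stimulated genes 14 rose and 1 fell, with a median of 0.23. The lower count was 0 without mouse 3 and 2 without mouse 10. Oas2, which encodes a double-stranded RNA sensor that activates RNase L (chr5:120730333-120749853, minus strand), ranged from 0.977 to 4.88 CPM on Day 4 (median 2.38) and from 4.1 to 8.78 on Day 9 (median 5.73). The ranges overlapped only between 4.1 and 4.88, 14 of 15 mice rose, and the log2 fold change was 1.04 (SE 0.16, adjusted p 0.000244). The related Oasl2 rose by 1.17 (SE 0.19, adjusted p 0.000479), and the guanylate-binding protein gene Gbp7 by 0.41 (SE 0.07, adjusted p 0.000415) in all 15 mice. Mx1 (0.81, adjusted p 0.0083), an antiviral GTPase gene, and Ifi44 (0.72, adjusted p 0.0197), both named here after their values were seen, rose as well. Other widely used reporters of an interferon response were not called in the edgeR fit of all 15 mice. Isg15, the ubiquitin-like modifier gene, lay at 27 to 278 CPM on Day 4 (median 86.4) and at 51 to 245 on Day 9 (median 132), with a log2 fold change of 0.67 (SE 0.26, adjusted p 0.0726). Irf7 (0.35, adjusted p 0.305) and Ifit3 (0.06, adjusted p 0.696) were not called either. Without the 4 mice apart Isg15 (1.10, adjusted p 0.0036) and Irf7 (0.78, adjusted p 0.0122) were called, and 17 genes of the list rose with none lower. The rise of Isg15 was also called without mouse 12 or without mouse 13, and at 0.84 within the 4-digit mice (adjusted p 0.0343). It passed as well with DESeq2 (adjusted p 0.0272), with no filter (0.0468) and with limma on log2(TPM + 1) and log2(TPM + 0.1) (0.0149 and 0.0041), so its call depends on the test.

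Interferon-responsive promoters often hold an element that the STAT and IRF complexes bind. RefSeq promoter windows (GRCm38.p6, 250 bases before to 50 after the start) were searched on both strands for GAAANNGAA, whose matches can overlap one another. It was present in 8.57% of the 27025 windows of all genes. Of the 38 listed genes 29 had a window and 19 of these held the motif, with 7 of 10 among the genes that rose, 11 of 18 among those not called and 1 of 1 that fell. The windows of 3 genes are shown because Gbp7 rose in every mouse, Oasl2 had the highest fold change of the list, and Isg15 was not called, with motif matches in capitals.

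The windows lie at chr3:142530086-142530385 (plus strand) for Gbp7, chr5:114896684-114896983 (plus strand) for Oasl2 and chr4:156200769-156201068 (minus strand) for Isg15.
Gbp7: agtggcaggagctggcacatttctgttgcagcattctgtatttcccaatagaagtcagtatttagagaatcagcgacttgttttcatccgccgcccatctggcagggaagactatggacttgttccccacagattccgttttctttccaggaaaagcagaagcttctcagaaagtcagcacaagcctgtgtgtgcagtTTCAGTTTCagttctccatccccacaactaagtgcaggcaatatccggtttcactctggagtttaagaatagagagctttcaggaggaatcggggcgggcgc
Oasl2: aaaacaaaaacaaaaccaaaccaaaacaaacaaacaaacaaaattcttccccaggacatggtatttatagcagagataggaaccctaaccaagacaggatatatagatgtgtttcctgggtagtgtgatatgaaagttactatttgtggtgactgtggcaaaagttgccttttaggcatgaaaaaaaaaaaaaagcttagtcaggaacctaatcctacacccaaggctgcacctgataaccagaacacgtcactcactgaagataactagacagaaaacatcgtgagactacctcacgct
Isg15: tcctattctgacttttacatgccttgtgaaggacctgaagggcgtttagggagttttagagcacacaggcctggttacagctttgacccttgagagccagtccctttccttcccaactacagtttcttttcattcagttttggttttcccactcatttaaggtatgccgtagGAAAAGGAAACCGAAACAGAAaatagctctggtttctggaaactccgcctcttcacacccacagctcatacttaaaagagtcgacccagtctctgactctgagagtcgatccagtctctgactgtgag

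The Gbp7 window held 1 match, which began 52 bases before the start. The Isg15 window held 3 overlapping matches, at 78, 72 and 66 bases before the start, and that of Oasl2 had none. The gene with the most matches of the 3 was thus not the one that changed most. A match is a run of letters and was not tested as a site.

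T cell transcripts fell in every responder. Of 30 T cell identity genes 28 fell and none rose, with a median log2 fold change of -0.47. Cd3d, a chain of the antigen receptor complex (chr9:44981786-44987339, plus strand), ranged from 6.06 to 16.1 CPM on Day 4 (median 9.57) and from 3.32 to 7.2 on Day 9 (median 5.58). All 15 mice fell, by 0.80 on the log2 scale (SE 0.12, adjusted p 0.000233), and the medians were 7.61 on Day 17 and 6.91 on Day 24. The receptor constant region Trbc2 (-0.60, SE 0.07, adjusted p 4.54e-05) and the co-receptor genes Cd4 (-0.70) and Cd8a (-0.38) fell in 15, 14 and 14 mice. The inhibitory surface receptor Cd5 (-0.52) and the signalling chain Cd3e (-0.40) fell as well. Summed over the list, the level was 480 to 679 CPM on Day 4 (median 552) and 347 to 479 on Day 9 (median 444). The highest Day 9 library was thus narrowly below the lowest Day 4 library. The count of lower genes was 28 in the 4-digit mice alone, 28 without the 4 mice apart and 27 or 28 with any single mouse left out. In the 4 mice of the 3-digit series none was called, with a median of -0.46.

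Further genes were among the lower ones of smallest p. Dapl1, a gene of naive T cells, fell in all 15 mice by 0.82 (SE 0.10, adjusted p 5.87e-05). Ly6c1 fell by 0.74 (SE 0.10) and Tdrp by 0.63 (SE 0.10), also in all 15. Ly6c1 is the near-identical neighbour of the monocyte gene Ly6c2, and reads that fit both could have been split between them.

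The cytotoxic and NK cell list did not move one way. Of 30 genes 7 rose and 2 fell (median 0.08), and 4 rose with none lower without the 4 mice apart. The median ran from 0.01 without mouse 12 to 0.15 without mouse 14. It was below 0 without the block (-0.01) and on TMM-rescaled TPM (-0.02). The 2 lower genes became 5 without mouse 2, 1 without mouse 5, 6, 10 or 12, and 0 without mouse 9, 13 or 14. Il18rap, a chain of the interleukin 18 receptor, rose in all 15 mice from a median of 8.39 to 12.5 CPM (0.52, SE 0.08, adjusted p 0.000281). S1pr5, the receptor that lets NK cells leave marrow and nodes, rose in all 15 (0.42, SE 0.08), and the transcription factor gene Zeb2 in 14 (0.43). The granzyme gene Gzmb rose by 0.46 (SE 0.13, adjusted p 0.0198) in 13 mice, but was not called without the 4 mice apart (0.40, adjusted p 0.0787). The NK receptor gene Ncr1 (0.10) and the granule gene Nkg7 (-0.25, adjusted p 0.107) were not called. Nkg7 passed, lower, without mouse 2 (-0.31, adjusted p 0.0332).

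The antibody's own target could not be followed. Pdcd1, the PD-1 gene, had at most 18 counts in a Day 4 library and 19 in a Day 9 library and did not reach the filter. Of 18 checkpoint and regulatory T cell genes 3 rose and 1 fell (median 0.12, and 0.07 without mouse 11). The median was 0.04 without the 4 mice apart, 0.06 in the 4-digit mice and 0.29 in the 3-digit mice. Cd274, the gene of the PD-1 ligand PD-L1, went from 4.35 to 6.88 CPM (median 5.49) to 5 to 14.6 (median 6.98), a rise of 0.44 (SE 0.11, adjusted p 0.00842) in 12 of 15 mice. It was called in neither tag series alone, at 1.05 in the 3-digit mice (adjusted p 0.0587) and 0.21 in the 4-digit mice (adjusted p 0.1). Cd200r1 (0.60) rose in all 15 mice and Havcr2 (0.57), the TIM-3 gene, in 12. Tox, a transcription factor gene of T cell development and exhaustion, fell in all 15 (-0.52, SE 0.09, adjusted p 0.000479). Ctla4 (0.44, adjusted p 0.103) and the regulatory T cell gene Foxp3 (-0.30, adjusted p 0.0923) were not called. Foxp3 passed, lower, without mouse 2 (-0.35, adjusted p 0.049).

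B cell transcripts fell alongside those of T cells. Of 28 mature B cell genes 20 fell and none rose, with a median of -0.31. Cd79b, a signalling chain of the B cell receptor (chr11:106311341-106314762, minus strand), ranged from 57.1 to 110 CPM on Day 4 (median 73.2) and from 41.9 to 60.8 on Day 9 (median 52.5). It fell in all 15 mice by 0.61 (SE 0.09, adjusted p 0.000159), with medians of 49.2 on Day 17 and 69.7 on Day 24. Its partner Cd79a (-0.63), the follicle-homing receptor gene Cxcr5 (-0.54), the CD20 gene Ms4a1 (-0.49) and the surrogate light chain gene Vpreb3 (-0.85) fell too. The list's summed level fell in all 15 mice, from 1060 to 1580 CPM (median 1260) to 816 to 1100 (median 957). Its mean log2 change over genes was above 0 in 1 mouse, mouse 1, at 0.01.

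MHC class II molecules present peptides to CD4 T cells and are made mostly by B cells and dendritic cells in blood. Of 12 genes 7 fell and none rose, with a median of -0.34, and 6 fell without the 4 mice apart (median -0.22). Cd74, the invariant chain, stood at 417 to 830 CPM on Day 4 (median 496) and 296 to 459 on Day 9 (median 362), and fell in all 15 mice (-0.62, SE 0.13, adjusted p 0.00283). H2-Ab1 (-0.53), H2-Aa (-0.54), H2-Eb1 (-0.45) and H2-DMb2 (-0.40) fell in all 15 as well. Ciita, the regulator that switches these genes on, was at medians of 29.6 and 29.8 CPM (0.01, SE 0.06). H2 genes are close copies of one another, so reads could have been shared among them. In the class I and immunoproteasome list 1 of 16 genes rose and 5 fell (median -0.05), and without the 4 mice apart 1 fell and none rose (median 0.01). Leaving out mouse 4, 5, 6, 12 or 13 singly gave 3 lower. Without mouse 9, 3 were higher, and without mouse 4, 5, 6, 12, 13 or 14 none was. H2-K1 (-0.01) and the peptide transporter gene Tap1 (-0.02) were not called, Erap1 fell (-0.22), and the calls of Psmb8 (-0.25), Psmb10 (-0.30) and Nlrc5 (0.34) were lost without those 4 mice, at adjusted p 0.132, 0.146 and 0.28. The call of Nlrc5 also ended when any of 7 mice was left out singly (adjusted p 0.054 to 0.0655).

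Plasma cell and immunoglobulin genes did not move one way. Of 17 on the list 6 rose and 6 fell, with a median of -0.01 that was 0.01 without mouse 11 and 0.03 without the 4 mice apart. The mean log2 change over the list was above 0 in 13 of 15 mice. Its summed level, in contrast, was higher on Day 9 in only 3 mice, with medians of 208 CPM on Day 4 and 183 on Day 9. Ighg1, the constant region of switched IgG1 (chr12:113325240-113330523, minus strand), was scarce, at 0.0541 to 0.571 CPM on Day 4 (median 0.176) and 0.106 to 1.19 on Day 9 (median 0.521). It rose by 1.5 (SE 0.20, adjusted p 0.000111) in 14 of 15 mice, and its median was 0.888 on Day 17 and 0.875 on Day 24. The joining chain gene Jchain rose by 0.71 (SE 0.15, adjusted p 0.00315) in 12 mice and the secretory regulator gene Xbp1 by 0.33 (SE 0.08). The light chain constant genes Igkc (-0.57) and Iglc1 (-0.45) and the B lineage chaperone gene Mzb1 (-0.38) fell. Constant genes of one class resemble each other, and reads could have been divided among the Ighg genes.

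Cell cycle genes did not move one way either. Of 29 proliferation genes 5 rose and 7 fell (median 0.21), and without the 4 mice apart 8 rose and 4 fell. The higher count was 3 without mouse 8, 10, 11, 14 or 15, and the median was lowest without mouse 15, at 0.10. Mki67 rose by 0.68 (SE 0.23, adjusted p 0.0402) in only 9 of 15 mice, with a Day 4 range of 3 to 19.4 CPM and a Day 9 range of 6.63 to 27.2. Leaving out any of 9 mice in turn ended the call, with adjusted p up to 0.0735. E2f8, which encodes a cell cycle repressor, rose in all 15 mice (0.69, SE 0.14, adjusted p 0.0015). The replication licensing genes Mcm5 (-0.35) and Mcm7 (-0.32) and the ribonucleotide reductase gene Rrm1 (-0.32) fell, Mcm5 only with the 4 mice apart included (-0.20, adjusted p 0.125 without them). Top2a was at 0.24 and was not called.

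Red cell genes had a median of 0.48, with 6 of 31 called higher and none lower. Tfrc, the transferrin receptor of young red cells and dividing cells (chr16:32608920-32632794, plus strand), rose from a median of 4.16 (range 1.76 to 7.54) to 7.4 (range 4.18 to 13.9) CPM. The log2 fold change was 0.83 (SE 0.14, adjusted p 0.000492) and 14 of 15 mice rose. The Rh-associated glycoprotein gene Rhag rose by 1.33 (SE 0.27) and the nuclear exporter gene Xpo7 by 0.78 (SE 0.23). The adult globin Hbb-bs (0.00, SE 0.80) and the haem synthesis gene Alas2 (0.18, SE 0.39) were not called, and their spread between mice was wide. Without the 4 mice apart 17 of 32 red cell genes were higher and the median was 0.91, and without mouse 13 alone 11 were higher. By mouse, the list's mean change ran from -1.31 in mouse 13 to 2.01 in mouse 15.

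The platelet list depended on the same libraries. Its median was -0.25 in all 15 mice and 0.24 without the 4 mice apart, with 1 of 27 and 2 of 27 genes called higher. Without mouse 4, 12 or 13 alone the median was -0.14, -0.12 or -0.13. The chemokine gene Pf4 (-0.51, adjusted p 0.0923), the integrin gene Itga2b (-0.17), the tubulin gene Tubb1 (-0.25), Gng11 (-0.52) and Cd9 (-0.45) were not called. DESeq2 called Pf4, Gng11 and Cd9 lower (adjusted p 0.0471, 0.0397 and 0.0413). Without mouse 11 Pf4 and Gng11 passed, at 0.0446 and 0.0305, and none of the list was higher. In the fit without the block 4 were lower, none was higher and the median was -0.50. The lone higher call was Sparc (1.94, SE 0.62, adjusted p 0.0301), a matrix protein gene also made by stroma, which was not called without the 4 mice apart (1.40, adjusted p 0.165), without mouse 6, 9, 11, 13 or 14 singly, or in the fit without the block (0.85, adjusted p 0.409). The Day 4 library of mouse 10 held 545 counts of Sparc beside 1593 of Col1a1 and 1352 of Col1a2, both collagen genes of stroma.

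Ribosomal protein genes fell together. Of 79 cytosolic ribosomal protein genes 56 fell and none rose, with a median of -0.49, and 41 fell without the 4 mice apart (median -0.29). Rps15 ranged from 64.3 to 170 CPM on Day 4 (median 86) and from 56.6 to 75.8 on Day 9 (median 60.5), and fell in all 15 mice (-0.71, SE 0.13, adjusted p 0.00105). Rpl30 (-0.59), Rps19 (-0.58) and Rps27 (-0.52) fell as well, while Rplp0 was not called (-0.10, SE 0.23). Of 74 genes of the respiratory chain and ATP synthase 16 fell and none rose (median -0.11), including Atp5d (-0.56), Ndufb5 (-0.44) and Ndufa9 (-0.36), with Cox4i1 (-0.17) and Atp5b (0.10) not called. Without the 4 mice apart that list had 8 genes higher and 6 lower, and its median changed sign to 0.04.

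Of 26 immediate early and heat shock genes 7 were higher and 6 lower (median 0.09). Without the 4 mice apart 3 were higher and 3 lower, and leaving out mouse 6, 8, 13 or 14 singly gave 4 higher. The list's mean log2 change was above 0 in 14 mice, whereas its summed level was higher on Day 9 in only 4. The medians of that sum were 540 CPM on Day 4 and 506 on Day 9. The stress transcription factor gene Atf3 rose in all 15 mice (1.10, SE 0.17, adjusted p 0.000282) and the early response gene Ier3 in 14 (1.38, SE 0.25). Fos rose by 0.96 (SE 0.31, adjusted p 0.0295), a call that ended without the 4 mice apart (0.77, adjusted p 0.175), when any of 7 mice was left out singly, and without the block (0.44, adjusted p 0.365). The mitochondrial chaperone gene Hspe1 fell (-0.56, SE 0.10, adjusted p 0.000567). Hsp90aa1 (-0.20) passed only at adjusted p 0.0371, and neither without the 4 mice apart, at 0.169, nor when any of 9 mice was left out singly. Hspa1a was at 0.25 and was not called.

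The mice did not all follow the medians. Mouse 1 was the 1 animal whose monocyte list did not rise, at -0.08, and it also had the lowest mean changes of the neutrophil list (-0.28) and the innate sensor list (-0.14). Mouse 9 had the highest monocyte change, 1.93, and the highest interferon list change, 0.62. The T cell list fell in all 15, from -0.21 in mouse 13 to -0.93 in mouse 4, both among the 4 whose Day 4 library stood apart. Platelet change ran from -1.96 in mouse 12 to 0.81 in mouse 11. The mean change of the T cell list thus had 1 sign in all 15 mice and those of the classical monocyte and neutrophil lists in 14. The means of the dendritic cell and red cell lists were above 0 in 10 each and that of the platelet list in 7. The summed level of the dendritic cell list, in contrast, was higher on Day 9 in only 1 mouse.

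**Figure D3:**
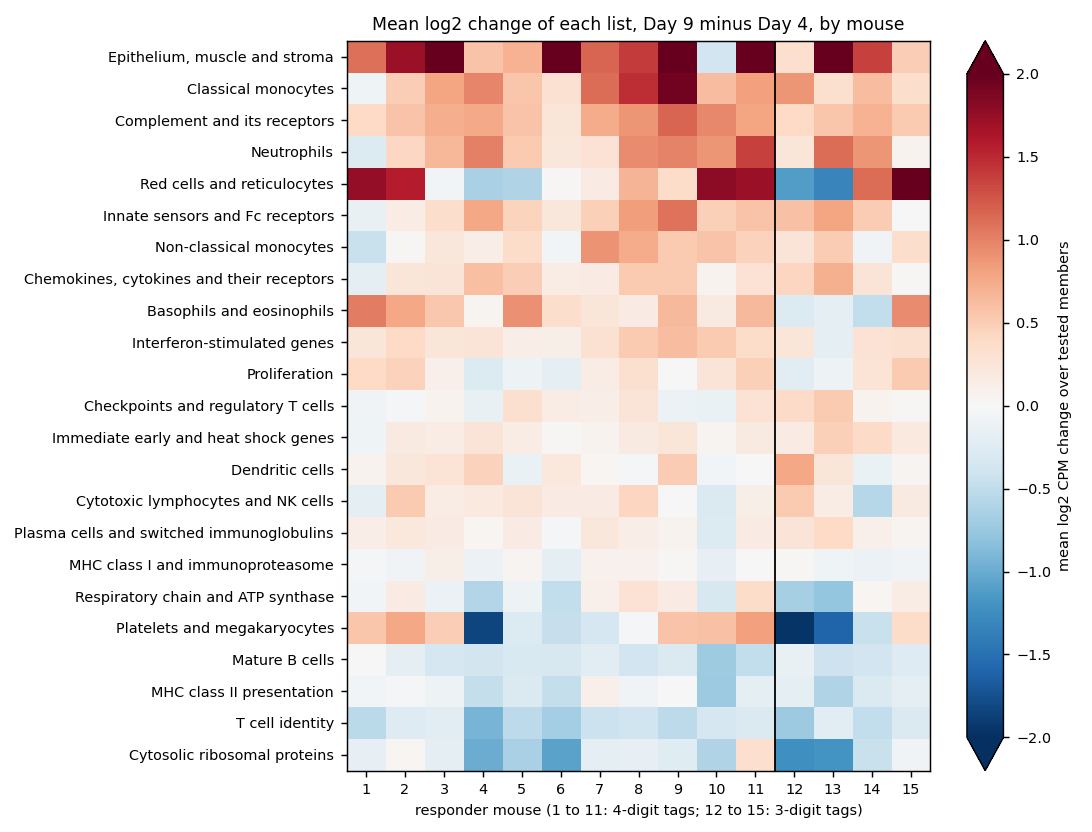
Mean log2 change from Day 4 to Day 9 of each gene list (y axis) in each mouse (x axis, by number), as colour, with a line between the 4-digit and 3-digit ear tags. The T cell list is negative in all 15 mice, and the monocyte list is positive in 14, with mouse 1 at -0.08.

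Genes of mucosal epithelium were among those of smallest p. Several were at or near 0 on Day 4 and passed the filter on low counts through Day 9, which set their direction, so their values are a description. Plekhs1 (chr19:56461640-56486752, plus strand), the amino acid transporter gene Slc6a14, Fam84a, the protease gene Prss22 and the surface antigen gene Psca rose in all 15 mice, with fitted log2 fold changes of 4.62, 4.43, 4.97, 4.53 and 4.15. Those fits rest on counts at or near 0 on Day 4 and depend on the prior count. In the 11 mice of the 4-digit series Prss22 and Psca had 0 counts in all 11 Day 4 libraries, against 2 to 71 and 3 to 37 counts on Day 9. In the 4 mice of the 3-digit series Prss22 had 13 to 23 counts on Day 4 and 127 to 867 on Day 9. The membrane protein gene Emp1 (2.84, SE 0.21) and the simple-epithelium keratin gene Krt7 (2.08, SE 0.17) were present on both days and also rose in all 15 mice. The 2 tag series thus differed in level on both days.

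Mucosal transcripts were summed over 11 genes chosen after their values were seen, namely Plekhs1, Slc6a14, Fam84a, Prss22, Psca, the mucin gene Muc4, the epithelial transcription factor gene Elf3 and the keratin genes Krt4, Krt5, Krt13 and Krt14. In 4-digit mice the sum was 0 to 0.0597 CPM on Day 4 (median 0.0117) and 1.45 to 13.6 on Day 9 (median 4.34). In 3-digit mice it was 1.82 to 14.1 on Day 4 (median 10) and 29.6 to 129 on Day 9 (median 77). Within each series the lowest Day 9 library was above the highest Day 4 library. On Days 17 and 24 the medians were 12.5 and 14.4 in the 4-digit series, and 1.8 and 12 in the 3-digit series. All 15 Day 9 libraries thus held transcripts of these genes.

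The list of epithelium, muscle and stroma, 26 genes, mixed such genes with genes that blood cells also use. Only 10 passed the filter, some of them through Day 9 alone, which set their direction, so the counts over these 10 support nothing about the list. Of them 6 were called higher and 1 lower (median 1.43, or 0.62 without the block), and 4 higher and 1 lower without the 4 mice apart. In the 4-digit mice 6 genes were tested, with 2 higher, 1 lower and a median of -0.03. Krt13 was at 0 counts in all 11 Day 4 libraries of the 4-digit mice and at 30 to 99 in those of the 3-digit mice, and at 2 to 74 and 117 to 1040 on Day 9. The basal keratin Krt5 reached 19 counts on Day 4 and 189 on Day 9 and was not tested, and the muscle gene Myh4 was above 0 in 4 of 30 libraries. The collagen gene Col3a1 was at 0 counts in 6 of the 11 Day 4 libraries of the 4-digit mice and at 5 to 84 in those of the 3-digit mice, and at 4 to 32 and 133 to 808 on Day 9. The fitted change of Col1a1 was 2.83 with the block and 0.59 without it (adjusted p 0.638), and it was not called without the 4 mice apart (adjusted p 0.0722). The 1593 counts of Col1a1 in the Day 4 library of mouse 10 compare with a median of 2 over the Day 4 libraries of the 4-digit series. Epcam, an epithelial adhesion gene, was not called (-0.09, SE 0.30), and Sfn fell (-0.32). Over the whole list, summed levels were 32.9 to 87.1 CPM on Day 4 and 30.3 to 51.9 on Day 9 in the 4-digit mice, and 40.5 to 98.6 and 48.8 to 124 in the 3-digit mice. These sums include genes of endothelium and blood such as Pecam1. The source of the epithelial RNA and its part in the other results were not tested.

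**Figure D4:**
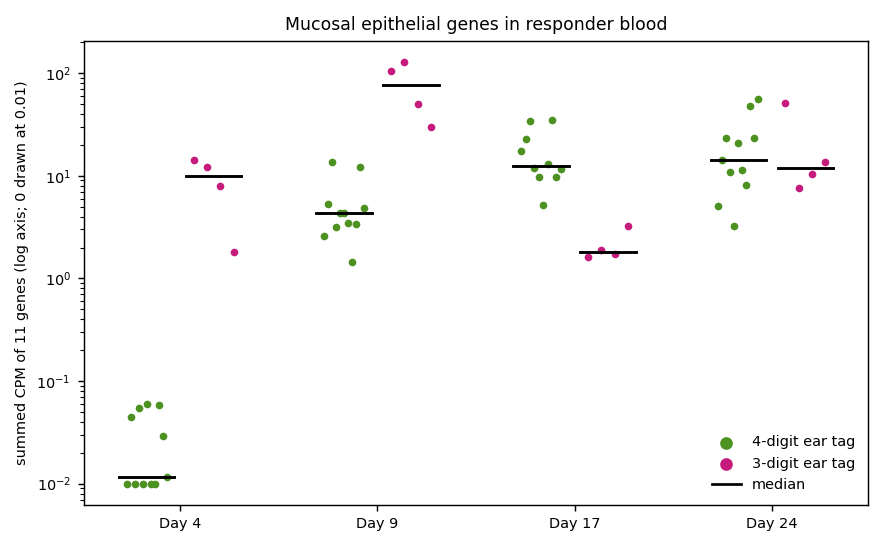
Summed level of 11 mucosal genes in CPM (log axis, with 0 drawn at 0.01) in each responder library by day, split by ear tag series. On Day 4 the 4-digit mice lie at 0 to 0.0597 and the 3-digit mice at 1.82 to 14.1, and on Day 9 at 1.45 to 13.6 and 29.6 to 129.

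Complete separation of the days was rare at the level of single genes. In 11 genes (0.0937% of those tested) the 15 Day 9 values did not overlap the 15 Day 4 values, and these were chosen after their values were seen. Besides Runx2, the dipeptidase gene Dpep2 was the other higher one, at 0.217 to 0.691 CPM on Day 4 and 0.75 to 1.56 on Day 9 (1.33, SE 0.17, adjusted p 5.87e-05). The 9 lower ones had small, even changes. Pa2g4, a growth-linked ribosome assembly gene, went from 8.28 to 11.5 CPM to 5.91 to 7.99 (-0.44, SE 0.05, adjusted p 5.75e-05). The DNA repair genes Parp1 (-0.30) and Rpa1 (-0.42), the spliceosome helicase gene Snrnp200 (-0.30), the nuclear import gene Kpnb1 (-0.21), Mybbp1a (-0.41), Entpd5 (-0.32), Sept6 (-0.42) and Shisa5 (-0.47) made up the rest.

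Within each ear tag series the medians of the monocyte, neutrophil, T cell and B cell lists had the sign they had in all 15 mice. In the 11 mice of the 4-digit series 759 genes were higher (6.49%) and 596 lower (5.1%), with medians of 0.77 for classical monocytes, 0.62 for neutrophils, -0.47 for T cells and -0.31 for B cells. In the 4 mice of the 3-digit series 62 genes were higher (0.527%) and 1 was lower (0.0085%), with medians of 0.44, 0.23, -0.46 and -0.34. The platelet list was at 0.03 in the former and -1.12 in the latter. A test of whether the change differed between the series called 9 genes, 6 larger in the 3-digit mice (0.0511%) and 3 smaller (0.0256%), with 686 at an unadjusted p under 0.05. Of the 3 smaller ones, Muc4 and Elf3 were at 0 or 1 count in the 4-digit Day 4 libraries and Plet1 had a Day 4 median of 0 CPM over all mice, so their direction depends on the prior count and they support nothing.

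The same interval in nonresponders asked whether these changes went with response. In 29 nonresponders with both days, 3423 of 13218 genes were higher (25.9%) and 2642 lower (20%), in a fit with more animals. The classical monocyte list had 24 of 25 genes higher (median 1.01), and T cell genes had 28 of 30 lower (median -0.50). Vcan rose by 2.81 and Cd3d fell by 0.70. Neutrophil genes had a median of 1.02 in nonresponders and 0.63 in responders in the joint fit, and interferon-stimulated genes 0.40 and 0.24. The mucosal gene Plekhs1 was at 4.62 in responders and 2.71 in nonresponders (adjusted p 0.999 for the difference), fitted values that depend on the prior count, and 4-digit tags, whose Day 4 libraries were near 0 in these genes among responders, made up 11 of 15 responders and 7 of 29 nonresponders. The differences between list medians were not tested. edgeR's gene-by-gene test of the interaction of response and day called 0 genes, with 575 of 13218 at an unadjusted p under 0.05 (4.35%), and limma voom called 0 with 533. With tag series by day as a further term, 0 genes were called. In that fit 1513 of 13218 were at an unadjusted p under 0.05, more than the 575 without the term. Within the 4-digit and the 3-digit mice the counts were 0 and 0, with 690 of 12660 and 649 of 14076 genes under 0.05. The smallest adjusted p was 0.272, for Cxcr6, a receptor of tissue-homing T cells chosen after its value was seen, at 0.20 in responders and -0.34 in nonresponders.

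**Figure D5:**
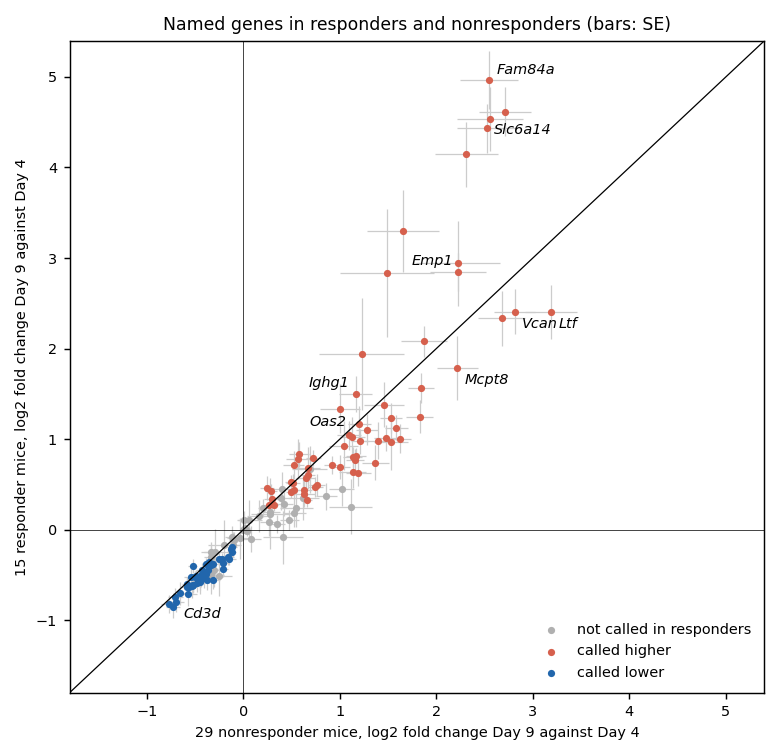
Log2 fold change from Day 4 to Day 9 of the named genes in nonresponders (x axis, 29 mice) and responders (y axis, 15 mice), with standard errors as bars. The places of Plekhs1 and the other mucosal genes depend on the prior count and are no measured difference. Vcan lies at 2.81 and 2.41, and Cd3d at -0.70 and -0.80.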

How the data were processed

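Polyadenylated RNA of whole blood was sequenced in 30 libraries of 15 responders. Per the submitters' processing notes the authors used STAR and mm10; the counting tool and its version are not given in the sources used here. The authors deposited estimated counts per gene, which need not be whole and were rounded here, and the authors also deposited TPM. Positions are GENCODE M21 genes on GRCm38, and promoter windows are RefSeq GRCm38.p6. The columns of the tables all matched a sample.

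edgeR 4.0.16 (R 4.3.3) was run with filterByExpr, TMM scaling, a quasi-likelihood fit and F test with the ear tag as a block, and Benjamini-Hochberg adjustment over 11736 of 55450 genes. TMM scaling corrects for unequal composition between libraries, whereas the deposited TPM keep haemoglobin in their common total. Red cell levels still differed widely after TMM, with list sums of 379000 to 2760000 CPM on Day 4. Whether the haemoglobin share accounts for the gap between TPM and count calls was not tested. Levels are CPM after TMM over the responder libraries of 4 days, not corrected for length. The interaction with response used 44 mice with both days. The scripts were tested on simulated data. Intervals and SE reflect the spread between mice.

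Both libraries of a tag came from 1 animal, which is where the pairing comes from. Deviations of same-mouse libraries correlated at -0.204 to 0.329 (median 0.0254), against a mean of -0.0018 between different mice. Only 1 of 15 mice matched its own tag best. The pairing thus rests on the tags and was not borne out by the expression values. The most alike libraries correlated at 0.9855 and none were duplicates.

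Members and gene lists were chosen with earlier results of these data known. Named were the 8 genes of smallest p in each direction among those called at 1.5-fold or more (without variable segments and unnamed predicted genes), each list's anchors with its 3 other members of smallest p, and the 3 genes of smallest p in each direction among those called for the interaction, of which there were none. Other genes were chosen after their values were seen. Some genes that the rule names are not reported here. Alternatives were the fit without the block, all 4 days, DESeq2 1.42.0, RLE scaling, removal of haemoglobin genes, no filter, 10 counts in every sample, limma 3.58.1 on log2(TPM + 1) and log2(TPM + 0.1) with a mean TPM of at least 0.5, each tag series and each mouse left out. Added after seeing the data were TPM divided by TMM factors, leaving out 4 mice, limma voom and the test between tag series.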

Additional observations from a re-analysis of the deposited data

Results flagged for a closer look

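The change from Day 4 to Day 9 differed between the 2 ear tag series in 9 genes by edgeR's test of the difference itself, each given as the 3-digit change minus the 4-digit change on the log2 scale. The fitted difference was -5.48 for Plet1, -5.23 for Muc4 and -5.65 for Elf3, which are epithelial genes. These fitted values depend on the prior count and are no measure of a difference in fold, since Plet1 had a Day 4 median of 0 CPM over the 15 mice and in the 11 Day 4 libraries of the 4-digit mice Elf3 had 0 counts and Muc4 had 0 in 10 and 1 in the other, against 16 to 35 and 36 to 98 counts in the 3-digit mice. All 3 passed the filter through the libraries where they are high. On Day 9 Elf3 and Muc4 were higher in the 3-digit mice, with 76 to 507 counts of Elf3 against 9 to 67 and 285 to 1391 of Muc4 against 8 to 140.

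For the other 6 the fitted change was larger in the 3-digit mice, though not each of them was called as rising. The difference was 2.48 for the kinase gene Plk2 (SE 0.34, adjusted p 0.00431), 1.66 for the ectonucleotidase gene Nt5e (SE 0.24, adjusted p 0.00695) and 2.14 for Ltf (SE 0.34, adjusted p 0.0139). It was 1.75 for the sphingolipid transporter gene Spns2 (SE 0.29, adjusted p 0.0228), 1.86 for the receptor inhibitor gene Errfi1 (SE 0.33, adjusted p 0.0437) and 2.08 for Plekha6 (SE 0.38, adjusted p 0.0437). Spns2 was at -0.23 in the 4-digit and 1.52 in the 3-digit mice, neither called, and Plekha6 at 0.02 and 2.11. The summed mucosal level on Day 9 was also higher in the 3-digit mice, at 29.6 to 129 against 1.45 to 13.6 CPM, and its part in these genes was not tested. The 3-digit series holds 4 mice, and all 9 genes were chosen after their values were seen.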

How the results depend on the processing

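The 2668 calls became 26 with limma on log2(TPM + 1) and 40 on log2(TPM + 0.1), 1309 on log2(TPM + 1) with TMM-rescaled TPM, 1355 in the 4-digit mice and 63 in the 3-digit mice. At 1.5-fold or more the 673 became 24, 35 and 77 on the same TPM scales, 63 in the 3-digit mice, 1015 with no filter and 384 with 10 counts in every sample. On log2(TPM + 1), rescaling changed both the scaling and the genes tested. The calls were 26 of 6782 genes on unscaled TPM and 1309 of 6341 on rescaled TPM. The 3-digit count comes from 4 mice. The causes of these moves were not tested. In 9 lists more than 50% of the tested members were called in 1 direction, against 0 with log2(TPM + 1) and 0 in the 3-digit mice. The 9 include the epithelium, muscle and stroma list, whose counts the filter set in part. Leaving out 1 responder gave 2247 to 2777 calls, 613 to 742 at 1.5-fold, 0 to 0 for the interaction, from which no nonresponder was left out, and 8 to 10 lists. The share of calls that were higher was 50.7%, and 44.8% without the block, 42.5% on rescaled TPM, 63.3% without the 4 mice apart, 58.4% with no filter, 92.3% and 92.5% on unscaled TPM and 98.4% in the 3-digit mice.

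Without the replicate block, which pairs the libraries of a mouse, 2882 genes were called (677 at 1.5-fold, 8 lists, 0 for the interaction), and 3476 with all 4 days. Without the pairing the call of 9 of 162 named genes changed: Nr4a1, Nkg7, Pf4, Gng11 and Cd9 gained it, and Fcgr4, Sparc, Fos and Col1a1 lost it. DESeq2 gave 3083 (with 5 named genes gained, Nr4a1, Isg15, Pf4, Gng11 and Cd9, and 0 lost), RLE scaling 2700 and removal of haemoglobin genes 2662. No named gene reversed under any alternative. Of 114 named genes tested on log2(TPM + 1), 83 lost their call, and 6 of 111 did on rescaled TPM. In the 3-digit mice alone 110 of 160 lost it, and in the 4-digit mice alone 13 of 152. Depth limits genes such as Pdcd1, Cxcl10 and C1qa, which had at most 19, 30 and 104 counts in a library and were not tested.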

Other observations

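Further genes were chosen after their values were seen and are given as values only. The apolipoprotein L genes Apol10a, Apol11a and Apol11b rose by 2.32 (SE 0.34), 2.25 (SE 0.35) and 2.05 (SE 0.38), in 14, 13 and 13 of 15 mice. Apol11b ran from 29.3 to 379 CPM on Day 4 (median 109) and from 111 to 836 on Day 9 (median 443), and was back at medians of 132 and 131 on Days 17 and 24. The family members are close copies, so reads could have been divided among them. The asparagine synthetase gene Asns (1.57, SE 0.34), Chac1 (1.92, SE 0.27) and Nupr1 (1.40, SE 0.24) rose, with 12, 14 and 13 mice higher.

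The inhibitory receptor genes Lilrb4a (1.40, SE 0.20, adjusted p 0.000135, edgeR) and Pirb (0.78, SE 0.09, adjusted p 3.92e-05) rose in all 15 mice, and other genes of this kind were not counted. So did the GM-CSF receptor genes Csf2ra (0.74, SE 0.10) and Csf2rb (0.75, SE 0.08), the membrane protein gene Ms4a4a (1.41, SE 0.17), the urokinase receptor gene Plaur (0.70, SE 0.10) and the cytokine receptor gene Lifr (1.26, SE 0.19). Lifr had medians of 1.06 CPM on Day 4, 2.73 on Day 9 and 2.41 and 2.65 on Days 17 and 24, while Lilrb4a went from 10.6 to 27.9 and then to 23.2 and 12.3. The myeloid transcription factor gene Cebpa (0.88), the haem oxygenase gene Hmox1 (0.89), the growth factor gene Hgf (0.91) and the itaconate enzyme gene Acod1 (1.68) rose in 14, 13, 14 and 13 mice. Lower genes included the guanine nucleotide enzyme gene Impdh2 (-0.50, 14 of 15 mice) and the fatty acid desaturase gene Scd1 (-0.52, all 15).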
